A study of Homo sapiens with 2 samples.

Results

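The mature microRNAs (miRNAs) numbered miR-6720 to miR-6895 entered the human miRNA catalogue as one numbered block and are described as predicted mirtrons. They were taken as every name in the deposited expression table whose integer directly after hsa-miR- lay in that range. The rule found 178 of the 1497 mature names in the table (11.9%), made from 130 of its 1095 hairpins, with 92 names on the 5p arm, 84 on the 3p arm and 2 without an arm suffix. Every one of them was used. Of the 176 numbers in the block, 130 had a row and 46 had none, and names without a row carry no value here.

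The libraries came from A375, an established human melanoma cell line, in a study of miRNAs that regulate the BRAF-X1 transcript. There was 1 group: cells given dimethyl sulfoxide (DMSO), the vehicle used to dissolve drugs, 24 h after plating and harvested 48 h later. It held 2 libraries described as independent replicates, with no drug-treated or untreated group, so no condition was compared. Small RNA was sequenced and the values are RPM, the reads of a name scaled to 1000000 read assignments per library. Each value corresponded to a whole number of reads, with 10816826 read assignments in replicate 1 and 15428446 in replicate 2. One read was therefore worth 0.0924 and 0.0648 RPM, and a count of 0 allowed up to 0.277 and 0.194 RPM (3 reads). Intervals and limits of this kind cover counting error only. Of the 8 melanocyte and melanoma miRNAs checked, miR-204-5p (2766 and 2498 RPM), miR-221-3p, miR-222-3p, miR-146a-5p, miR-21-5p and miR-182-5p were abundant. The pigment-cell miRNAs miR-211-5p (3 and 2 reads) and miR-137 (6 reads in each) were near 0, and the liver, blood and muscle markers with a row held at most 8 reads. The epithelial markers were read at higher levels than any member, with 26.3 and 31.4 RPM of miR-200b-3p, 15.6 and 23.2 RPM of miR-141-3p and 6.56 and 9.72 RPM of miR-200c-3p, and their part in the members' values was not tested.

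Most animal miRNA precursors are cut from longer transcripts by the nuclease Drosha. A mirtron is instead released as an intron, or part of one, by splicing, so that one or both ends of its hairpin are splice sites, and Dicer then cuts it into the usual pair of arms. In a tailed mirtron only one hairpin end is a splice site and the rest of the intron hangs from the other end as a tail that must be trimmed. Introns begin with GU, and end in a stretch rich in pyrimidines followed by AG, so a mirtron's arms carry these letters where the hairpin reaches the intron's ends.

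The 3 architectures found among the members are shown first by 1 hairpin each, from RefSeq (GRCh38.p14), written 5′ to 3′ with the mature arms in capitals. All 3 lie within introns of protein-coding genes: mir-6834 in PFDN6, a prefoldin chaperone subunit (chr6:33290245-33290325, plus strand), is the whole intron of 81 bases. mir-6798 in RUVBL2, an AAA ATPase (chr19:49009906-49009972, plus strand), ends at the 3′ splice site and leaves a 5′ tail of 23 bases. mir-6790 in GTF2F1, a subunit of transcription factor TFIIF (chr19:6392921-6392983, minus strand), starts at the 5′ splice site and leaves 17 bases after it.
mir-6834: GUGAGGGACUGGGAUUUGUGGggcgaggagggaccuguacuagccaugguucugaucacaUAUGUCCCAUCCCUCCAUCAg
mir-6798: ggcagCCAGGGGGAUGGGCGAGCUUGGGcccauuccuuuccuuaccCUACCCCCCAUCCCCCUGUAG
mir-6790: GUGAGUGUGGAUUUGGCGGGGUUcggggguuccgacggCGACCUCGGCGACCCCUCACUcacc

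The mature members on which the values below turn follow, from the same RefSeq tables, with the seed (bases 2 to 8, the part that chiefly selects target mRNAs) in capitals. The sequence of miR-6724-5p is that of the gene copy MIR6724-2.
miR-6724-5p: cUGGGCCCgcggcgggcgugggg
miR-6840-5p: aCCCCCGGgcaaagaccugcagau
miR-6859-5p: gAGAGGAAcaugggcucaggaca
miR-6770-3p: cUGGCGGCugugucuucacag
miR-6852-5p: cCCUGGGGuucugaggacaug
miR-6720-5p: uUCCAGCCcugguaggcgccgcg
miR-6720-3p: cGCGCCUGcaggaacugguaga
miR-6772-3p: uUGCUCCUgacucugugcccaca
miR-6798-3p: cUACCCCCcaucccccuguag
miR-6769b-3p: cCCUCUCUgucccacccauag
miR-6798-3p and miR-6769b-3p are 3p arms that carry the pyrimidine-rich run and end on the closing ag of the intron.

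The position of each hairpin was read from gene models (GENCODE release 29, GRCh38). The block was registered mostly as hairpins of spliced introns, so these positions describe the members and are not independent evidence for the name mirtron. All 130 member hairpins were found there by name, and 119 of them (91.5%) ended on the last base of an annotated intron, with 0 bases between. The same was true, within 5 bases, of 52 of the 957 other hairpins of the table that could be matched (5.43%). Of the 119, 8 spanned the intron, with both ends within 5 bases of a splice site: mir-6892 in ZYX, mir-6786 in HGS, mir-6857 in SMC1A, mir-6834 in PFDN6, mir-6789 in PLEKHJ1, mir-6807 in TRIM28, mir-6891 in HLA-B and mir-6800 in MED25. The other 111 had a 5′ tail with a median of 269 bases, from 8 to 9885. Most members are thus placed as 5′-tailed hairpins rather than as whole introns.

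The remaining 11 hairpins did not end at a 3′ splice site. Of these, 4 began at a 5′ splice site: mir-6850 in RPL8 and mir-6869 in FKBP1A, mir-6858 in FAM50A and mir-6790 in GTF2F1. Another 6 lay elsewhere in an intron. mir-6724-1 lay in the long noncoding RNA FP671120.1 (chr21:8205315-8205406, plus strand), and mir-6840 lay 28 bases before the 3′ splice site in PILRB (chr7:100356651-100356721, plus strand). mir-6723 lay in a pseudogene transcript, on the strand opposite the mitochondrial pseudogene MTCO1P12 (chr1:632325-632413, minus strand). mir-6852 in TLN1, the gene of the integrin-linking protein talin (chr9:35710676-35710741, minus strand), ran 8 bases past the splice site into the exon, and mir-6721 in AGPAT1 ran 9 bases past it. mir-6860 in SYT12 was the other of the 6. mir-6720 had no intron on its own strand and lay opposite FOXF2, the gene of a forkhead transcription factor (chr6:1390314-1390411, minus strand).

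**Figure D1:**
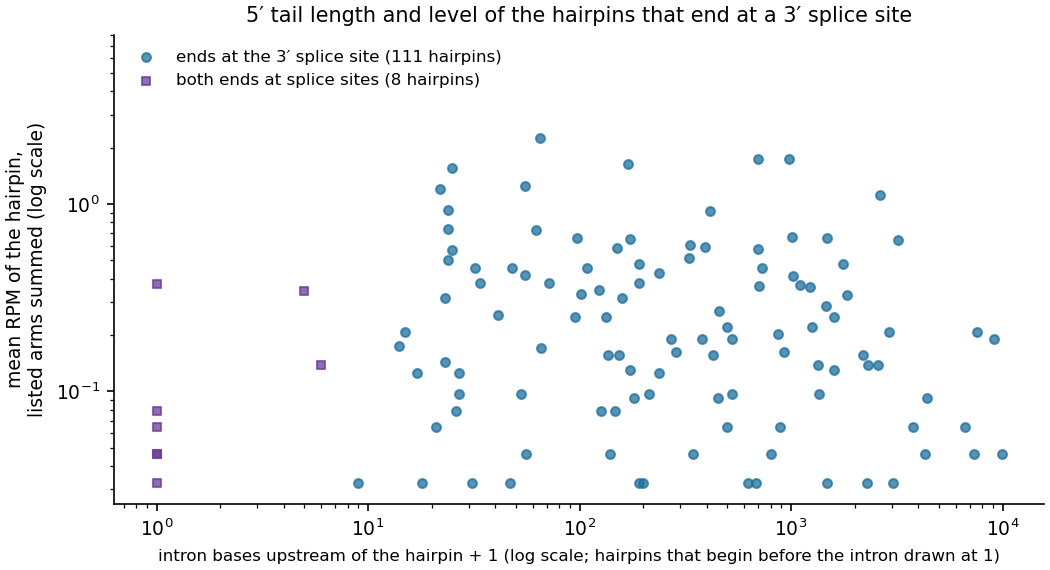
Mean RPM of each hairpin that ended at a 3′ splice site (listed arms summed, log scale) against the intron bases upstream of it (log scale), with circles for the 111 tailed hairpins and squares for the 8 that spanned an intron. Hairpins with fewer than 40 bases upstream, the 8 that spanned an intron included, had a median of 0.141 RPM. Those with 1000 bases or more had 0.173 RPM.

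Level did not follow the length of the tail in a single direction. The 28 hairpins with fewer than 40 bases upstream had a median of 0.141 RPM, the 32 with 40 to under 200 bases 0.285 RPM, the 29 with 200 to under 1000 bases 0.190 RPM and the 30 with 1000 bases or more 0.173 RPM. The first 28 include the 8 hairpins that spanned an intron and so had almost no tail, with a median of 0.0717 RPM. These medians lie a few reads apart, and no test was run on them.

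The members were expressed at a very low level. Together they held 649 reads in replicate 1 and 827 in replicate 2, which is 0.00729% ± 0.000628 (SD, n = 2) of the reads assigned to miRNAs once each name was counted once. Their mean RPM had a median of 0.141 (quartiles 0.0462 and 0.366, highest 4.45), against 0.588 over all names in the table. The median member had 2 reads in each library. Only 15 members (8.43%) had 10 reads or more in each library, against 644 of all names (43.0%). At 1 RPM or more in both libraries there were 9 members of the 593 names in the table at that level, and at 10 RPM or more there was no member among 335 names.

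Names from other late parts of the catalogue were also low. The 317 names numbered 4000 or higher outside the block had a median of 0.171 RPM, and the 80 other names whose hairpins ended at a 3′ splice site had a median of 0.173 RPM. Both medians exceeded that of the members by less than 1 read is worth in either library, but the upper parts of the sets differed more. The upper quartile of mean RPM was 0.634 for the late names and 0.573 for the names at 3′ splice sites, against 0.366 for the members. A depth of 10 reads in each library was reached by 17.7% and 15% of these names, against 8.43% of the members. Both libraries held a read for 63.4% and 62.5% of them, against 53.9% of the members. These shares were not tested. A short list of human mirtrons registered earlier (15 names from 10 hairpins, all 10 spanning an intron) had a median of 0.190 RPM. This list lies within the 80 names, since all 10 hairpins end at a 3′ splice site. In that list 1 name stood far above every member: miR-877-5p, from an intron of ABCF1, at 129 and 73.6 RPM (1391 and 1136 reads), more reads than all 178 members together. The next in that list, miR-1226-3p (1.28 ± 0.156 RPM, SD, n = 2) and miR-1229-3p (1.25 ± 0.0668 RPM, SD, n = 2), were at the level of the upper members.

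**Figure D2:**
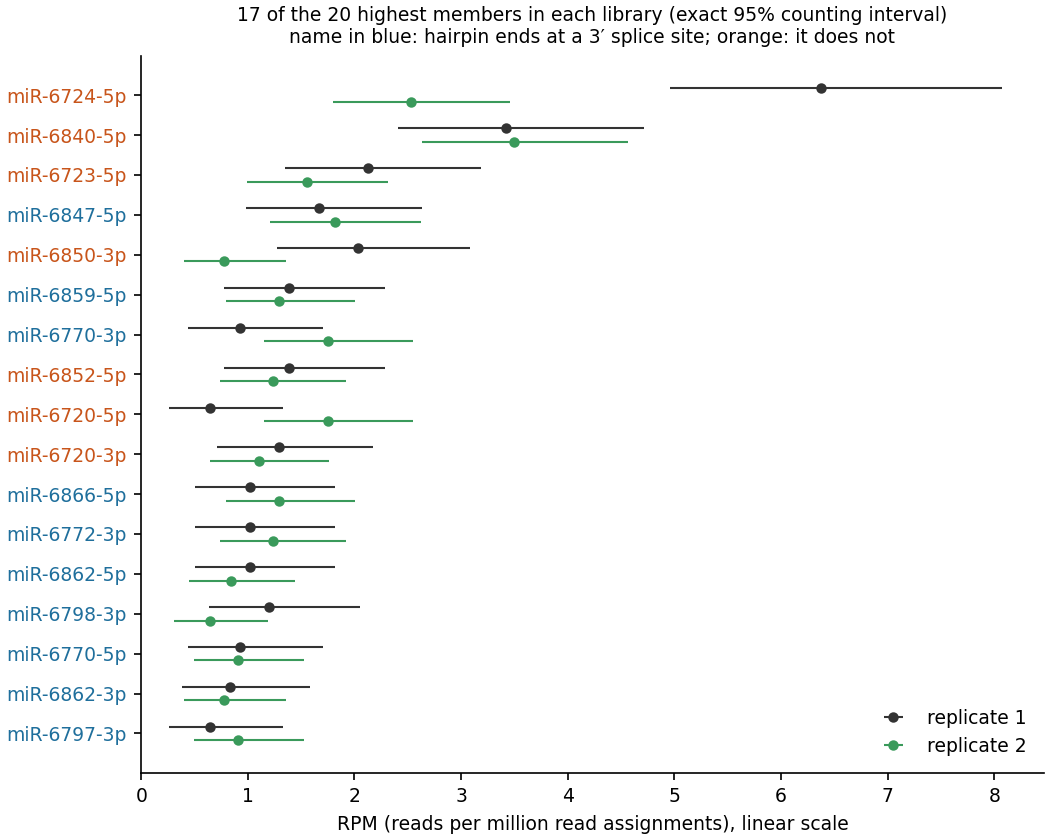
RPM (linear scale) of 17 of the 20 highest members in replicate 1 (black) and replicate 2 (green), with exact 95% Poisson intervals of the read counts. The 3 highest names are orange, which marks hairpins that did not end at a 3′ splice site, and the intervals of the 2 libraries lie apart for miR-6724-5p alone among these 17.

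The 3 highest members, and 7 of the 10 highest, came from hairpins that were not at a 3′ splice site. miR-6724-5p had 6.38 RPM in replicate 1 (69 reads) and 2.53 RPM in replicate 2 (39 reads), a mean of 4.45 ± 2.72 (SD, n = 2), and ranked 433 in the table. miR-6840-5p had 3.42 and 3.50 RPM (37 and 54 reads), a mean of 3.46 ± 0.0562 (SD, n = 2). miR-6723-5p had 2.13 and 1.56 RPM (23 and 24 reads). The order of the first 2 names was not the same in the 2 libraries, and miR-6840-5p was the steadier of them. GENCODE holds 4 copies of MIR6724, of which the table lists only the first, so its reads cannot be assigned to one copy.

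Below these 3, the values ran close together. miR-6847-5p, from an intron of EXOSC4 (a subunit of the RNA exosome), was the highest member at a 3′ splice site, with 1.66 and 1.81 RPM (18 and 28 reads). miR-6850-3p, from RPL8 (a ribosomal protein gene), had 2.03 and 0.778 RPM (22 and 12 reads). miR-6859-5p, at the WASH7P pseudogene (chr1:17369-17436, minus strand), had 1.39 and 1.30 RPM (15 and 20 reads). GENCODE also holds 4 copies of MIR6859, 3 of MIR6770 and 2 of MIR6862, and for each of these the table lists only the first copy.

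miR-6852-5p from TLN1 had 1.39 and 1.23 RPM (15 and 19 reads), and both arms of mir-6720 were in the same range. miR-6720-5p had 0.647 and 1.75 RPM (7 and 27 reads). miR-6720-3p had 1.29 and 1.10 RPM (14 and 17 reads). The 3p arm was thus the higher of the pair in replicate 1 and the 5p arm in replicate 2.

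Other members near 1 RPM came from introns of a pseudogene and of protein-coding genes. miR-6770-3p, from an intron of the pseudogene AC138932.1, which overlaps NPIPA1 (chr16:14930820-14930879, plus strand), had 0.924 and 1.75 RPM, and its 5p partner 0.924 and 0.907 RPM. miR-6866-5p, from CASC3, a core protein of the exon junction complex, had 1.02 and 1.30 RPM. miR-6772-3p, from the kinesin gene KIFC3 (chr16:57772289-57772352, minus strand), had 1.02 and 1.23 RPM. In each of these the reads were 10 to 27 a library, so neighbouring names in the order do not differ beyond counting error.

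miR-6862-5p, from EIF3CL, had 1.02 and 0.843 RPM, and miR-6862-3p 0.832 and 0.778 RPM. miR-6798-3p, from RUVBL2, had a mean of 0.925 ± 0.392 RPM (SD, n = 2). miR-6797-3p, from the ribosomal protein gene RPS19, had a mean of 0.777 ± 0.184 RPM (SD, n = 2).

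Split by position, the 16 members outside 3′ splice sites had a median of 0.509 RPM and the 162 members at 3′ splice sites a median of 0.139 RPM. The order was the same in each library, at 0.647 and 0.185 RPM in replicate 1 and at 0.454 and 0.130 RPM in replicate 2. The 16 names held 32.2% and 26.0% of the members' reads, or 24.1% and 22.3% without miR-6724-5p. They included 7 of the 10 highest members and 6 of the 15 with 10 reads or more in each library. No mean RPM among the 162 names at 3′ splice sites was above 1.74. Of the 16, the 7 at 5′ splice sites, which are also placed as tailed mirtrons, had a median of 0.0972 RPM. The 7 elsewhere in an intron had a median of 1.31 RPM, and both arms of mir-6720 had a mean of 1.2 RPM. This split was looked at after the values were known and carries no test. It rests on the limit of 5 bases, by which miR-6852-5p (mean 1.31 RPM), whose hairpin runs 8 bases past a splice site, counts as outside.

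Detection of single members was limited by depth. A read was found for 131 members in replicate 1 and for 143 in replicate 2, with 96 (53.9%) in both, 35 in replicate 1 alone and 47 in replicate 2 alone. Among all 1497 names, 77.2% were found in both. When replicate 2 was thinned to the depth of replicate 1, the expected numbers were 91.3 in both, 39.7 in replicate 1 alone and 38.5 in replicate 2 alone. The larger number seen in replicate 2 alone was thus close to even at matched depth. Of the 178 members, 47 had a single read over both libraries, 85 had 2 to 9 reads and 46 had 10 or more.

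Members found in one library alone were close to the limit of detection there. The most reads in replicate 1 alone were the 4 of miR-6823-3p, from PFKFB4, and the next were the 3 reads each of miR-6797-5p, miR-6814-5p, miR-6856-3p and miR-6857-3p. The most in replicate 2 alone were the 7 of miR-6777-3p, from the sterol-response gene SREBF1, and the 5 each of miR-6757-5p and miR-6812-3p. The other arm of mir-6823 had 4 and 9 reads and that of mir-6777 had 9 and 3 reads, so in both hairpins the partner arm was read in both libraries.

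**Figure D3:**
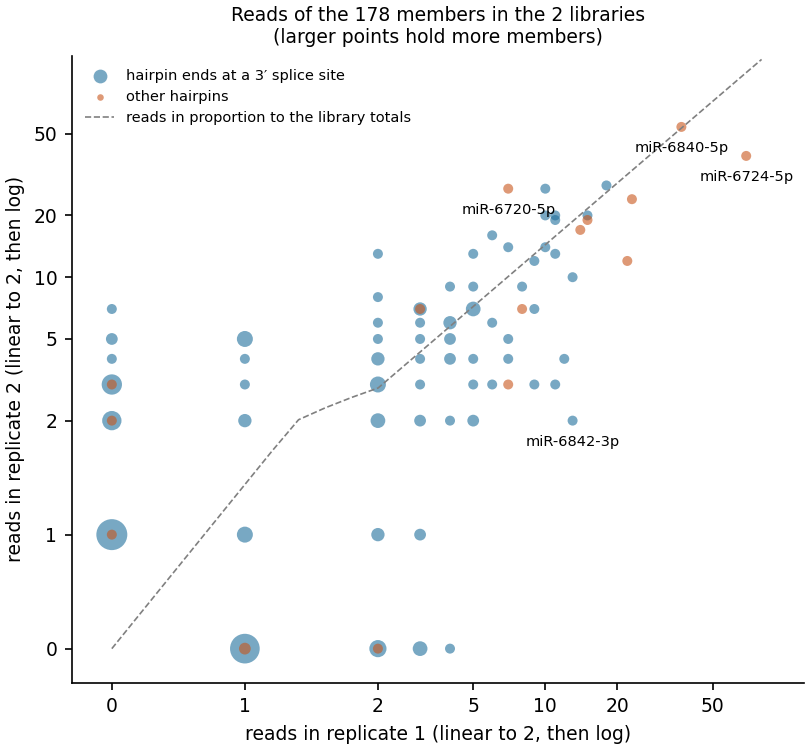
Reads of each member in replicate 1 and replicate 2 (axes linear to 2 reads, then log), with larger points where several members share a value and colour for the hairpin's position. Most points lie at 5 reads or fewer in each library (128 of 178 members), and miR-6842-3p, miR-6720-5p and miR-6724-5p lie off the dashed line of reads in proportion to the library totals.

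A few members differed between the 2 libraries by more than counting error. The test was Fisher's exact test on recovered reads, two-sided, with Benjamini-Hochberg adjustment over all 869 names with 10 reads or more in sum, and a difference was called at adjusted p under 0.05 and more than 2-fold. It compares these 2 libraries and speaks of no condition. Of all names tested, 41 were called, which is 4.72% of those tested (3.57% higher in replicate 1 and 1.15% higher in replicate 2). Of the 46 members deep enough to test, 6 were called (13.0%). Among the 423 tested names with no more reads than the highest member, 6.86% were called. At adjusted p under 0.05 alone, with no fold limit, 310 of the 869 names (35.7%) and the same 6 members (13.0%) passed Fisher's exact test. Whether the members' share lies above or below that of the table thus depends on the 2-fold limit.

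Of these 6, 5 were higher in replicate 1, and 4 of them follow. miR-6724-5p was 2.53-fold higher there (adjusted p = 1.03e-05, Fisher's exact test), with the counts given above. miR-6842-3p, from the tyrosine kinase gene PTK2B, had 13 and 2 reads and was 7.77-fold higher (adjusted p = 0.00154, Fisher's exact test). These were the only 2 members of 178 whose exact Poisson intervals did not overlap between the libraries. The share over all names is not given here, so this count cannot be called few or many. miR-6769b-3p, from the kinase gene IKBKE (chr1:206474803-206474864, plus strand), had 11 and 3 reads and was 4.73-fold higher (adjusted p = 0.0185, Fisher's exact test). miR-6850-3p was 2.59-fold higher (adjusted p = 0.0251, Fisher's exact test).

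The one member called higher in replicate 2 was miR-6720-5p, which was 2.55-fold higher (adjusted p = 0.0427, Fisher's exact test). Its partner miR-6720-3p was not called. Its adjusted p ran from 0.0293 to 0.0727 over the alternative settings, and the call was lost when names with fewer reads were tested too. For the other 4 named here, the adjusted p stayed under the limit wherever they were tested, with 0.0439 for miR-6850-3p the highest.

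The members gave reads from both arms. Of the 128 hairpins with arm suffixes, 48 had both arms listed, 44 the 5p arm alone and 36 the 3p arm alone, and an arm without a row was counted as 0 reads. Among the 48, the 5p arm was higher in both libraries for 17 hairpins and the 3p arm for 9, and for 22 the order differed, was tied or had no read in a library. Summed over the members, the 5p arm held 61.3% of reads in replicate 1 (397 against 251 reads, exact Clopper-Pearson 95% interval 57.4 to 65.0%) and 62.1% in replicate 2 (512 against 312 reads, 58.7 to 65.5%). Without miR-6724-5p the share was 56.6% and 60.3%.

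The summed 5p share was larger outside 3′ splice sites, where a few hairpins held most reads. The hairpins at 3′ splice sites had 53.2% (interval 48.4 to 57.9%) and 55.0% (51.0 to 59.0%) of their reads on the 5p arm. The other members had 78.4% (72.1 to 83.8%) and 82.3% (76.6 to 87.2%), or 67.6% (59.2 to 75.3%) and 78.4% (71.6 to 84.2%) without miR-6724-5p. Among them, mir-6723 and mir-6852 had the 5p arm alone listed, while mir-6850 had most of its reads on the 3p arm. The intervals of the 2 classes did not overlap in either library, with or without miR-6724-5p. Without it they lay close together in replicate 1 (57.9% against 59.2%). mir-6723 (23 and 24 reads) and mir-6852 (15 and 19 reads), each with all reads on its 1 listed arm, were still included. No share without them is given here, so a difference between the classes beyond these few hairpins is not shown. The interval at 3′ splice sites took in 50% in replicate 1. Reads of one hairpin are not independent, so the intervals describe counting error only.

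**Figure D4:**
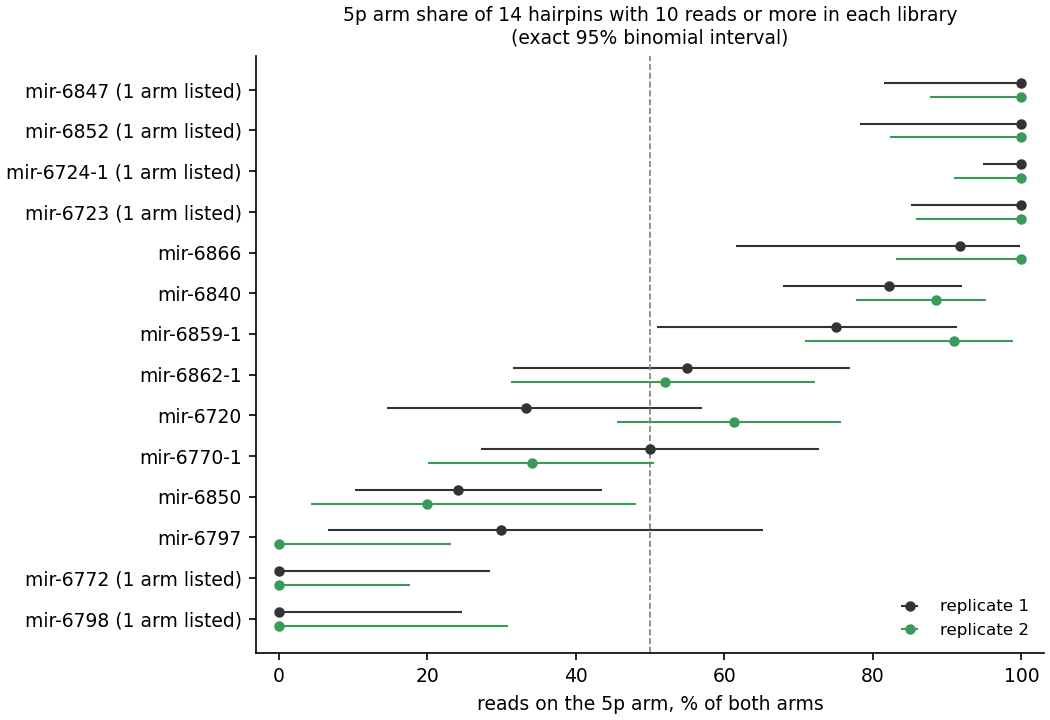
Share of reads on the 5p arm (percent) for 14 of the 16 member hairpins with 10 reads or more in each library, with exact 95% Clopper-Pearson intervals for the 2 libraries and a dashed line at 50%. mir-6840 and mir-6859-1 lie above 50% in both libraries, mir-6772, mir-6798 and mir-6850 lie below it, and mir-6720, mir-6770-1 and mir-6862-1 cross it.

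Only 7 member hairpins had 20 reads or more over both arms in each library. A hairpin was said to favour an arm when its interval lay beyond 50% on the same side in both libraries. The 5p arm was favoured by 4 of the 7, beside 174 of 341 hairpins (51%) over the table, and the 3p arm by 0 of 7, beside 142 hairpins (41.6%). Of the 4, mir-6724-1 and mir-6723 had the 5p arm alone listed. Their 5p share was therefore 100% by the rule that an arm without a row counts as 0, and it is no measured preference. With hairpins of 1 listed arm or a shared arm left out, 2 favoured the 5p arm. mir-6840 had 82.2% and 88.5% of its reads on the 5p arm, and mir-6859-1 had 75% and 90.9%.

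The 3 hairpins that favoured neither arm were mir-6720 (33.3% and 61.4% on the 5p arm), mir-6770-1 (50% and 34.1%) and mir-6862-1 (55% and 52%). With 20 to 44 reads a library, their intervals took in 50% in both libraries. When 10 reads were enough, 16 hairpins could be read. Of these, 7 favoured the 5p arm, among them mir-6866 (91.7% and 100%), and 3 the 3p arm. The 3p-favouring hairpins were mir-6772 and mir-6798, for which the 3p arm alone was listed, and mir-6850 (24.1% and 20% on the 5p arm).

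Few member hairpins were deep enough for a test of arm use between the libraries. Fisher's exact test on 5p and 3p reads by library, adjusted by Benjamini-Hochberg over 296 hairpins, called 85 hairpins of the table (28.7%). Of the 5 member hairpins deep enough to enter, 0 were called, and 0 had an unadjusted p under 0.05. The lowest adjusted p was 0.173, for mir-6720, by Fisher's exact test. With no read minimum, the intervals of 1 of the 43 member hairpins with both arms listed and reads in both libraries lay apart. No such share over all hairpins is given here. The 1 hairpin was mir-6777, below the read minimum of the test and chosen after its values were seen. It had 9 of 9 reads on the 5p arm in replicate 1 (66.4 to 100%) and 3 of 10 in replicate 2 (6.67 to 65.2%).

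The letters of many 3p arms showed the 3′ end of the intron. RefSeq gave a sequence for 159 of the 178 members. In the 5p members, G made up a median of 47.8% of bases (27.3% in the other 5p names of the table). In the 3p members, C made up 45.5% (23.8%) and pyrimidines 71.4% (54.5%). Of 77 members on the 3p arm, 46 ended with CAG (59.7%), against 26 of 456 other 3p names (5.70%), and 53 ended with AG (68.8%), against 9.87%. Of 73 that could be set against a splice site, 53 ended on the very last base of the intron. GU at the start of the 5p arm was rare, at 6 of 81 (7.41%) against 4.65% in other 5p names, and few member hairpins begin at a 5′ splice site. The position of the hairpins and these letters are 2 views of the same sequence.

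The members were diverse in their seeds. The 159 sequences held 152 different seeds, and 7 seeds were each shared by a pair of members, such as GGGAAAG in miR-6733-5p and miR-6739-5p. No pair had both members at 10 reads or more in each library. With names outside the block, 26 members shared a seed. The number of different seeds over all names is not given here. The seed of one of the 20 most abundant names in the table, 17 of which had a sequence, was found in 1 member. That member was miR-6838-5p, from the DNA polymerase gene POLM (chr7:44073378-44073433, minus strand), which carries the seed of the abundant tumour-suppressor family member miR-16-5p.
miR-6838-5p: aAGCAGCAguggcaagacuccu
miR-16-5p: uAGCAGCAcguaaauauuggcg
miR-6838-5p had 4 and 6 reads, or 0.379 ± 0.0135 RPM (SD, n = 2). What the shared seed does in these cells was not measured.

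Nearly all members sat in protein-coding genes (124 of 130 hairpins). The share over the other hairpins of the table is not given here, and the block was registered mostly as hairpins of spliced introns. There were 4 host genes with several member hairpins: ATG2A, a lipid-transfer protein of autophagy (mir-6749 and mir-6750), GTF2F1 (mir-6790 and mir-6885), the histone demethylase gene KDM5C (mir-6894 and mir-6895) and the phosphatase regulator gene PPP6R1 (mir-6802, mir-6803 and mir-6804). Their hairpins were low throughout. Those of ATG2A held 2 and 11 reads, those of GTF2F1 3 and 3, those of KDM5C 7 and 9 and those of PPP6R1 5 and 12 reads. Even a gene with 3 member hairpins thus gave no more than 12 reads in a library.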

How the data were processed

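Small RNA libraries of 2 DMSO-treated A375 cultures were analysed; nothing further says how independent the replicates were, so the spread may be partly technical. The authors deposited 1 table of 1546 rows of RPM (each column sums to 1000000), written with decimal commas. CASAVA 1.8 and cutadapt 1.2.1 are named, per the submitters' processing notes; for the aligner, the miRNA release and the build, nothing was stated: not given in the sources used here. From the deposited RPM, whole reads were recovered (100% of values within 0.01 of a whole read), and 1 value was kept per mature name (the highest copy). Library differences were tested with Fisher's exact test (two-sided, 10 reads in sum, Benjamini-Hochberg over the table, folds after adding 0.5 reads). Arm shares have Clopper-Pearson intervals and RPM values exact Poisson intervals (95%). Hairpins were set against GENCODE 29 introns within 5 bases; sequences are RefSeq GRCh38.p14. Python 3.11.15, pandas 2.3.3, scipy 1.17.1, numpy 2.4.6 and matplotlib 3.10.9 were used. The library test was tested on simulated data. The changed names there all had more reads than any member, so recovery at the members' depth was not tested. Named members are the 20 highest, those past the library test, the most and least 5p-biased hairpins, those in 1 library alone with most reads, shared seeds and the 3 highest older mirtrons. The members, lists and tests were chosen with earlier results of these data known. Alternative minimums, totals, tolerances and single libraries were tried. Results of 3 members are not reported here by name; they stay in the counts, medians and sums.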

Additional observations from a re-analysis of the deposited data

How the results depend on the processing

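Counts that rest on a minimum moved with it. Members at 10 reads or more in each library numbered 15, against 30 at 5 reads and 3 at 20 reads, and members at 1 RPM in both numbered 9, against 20 at 0.5 RPM and 0 at 10 RPM. The members called between libraries numbered 6, against 3 with 20 reads in sum and 3 with a 3-fold limit, and stayed at 5 or 6 with no read minimum, a 1.5-fold limit or other library totals. Hairpins favouring the 5p arm numbered 4, against 7 at 10 reads, 0 at 50 reads and 2 where hairpins with 1 listed arm were left out, and 4 to 7 when either replicate was left out. Those favouring the 3p arm numbered 0, against 3 at 10 reads and 0 to 1 when either replicate was left out (1 without replicate 2, from replicate 1 alone). The members' median was 0.130 to 0.185 RPM when either replicate was left out, and their share of reads 0.00685 to 0.00774%, or 0.00568% with all deposited rows as the total. Hairpins spanning an intron numbered 8, against 4 at 0 or 2 bases and 9 at 10 bases. The 119 at a 3′ splice site remained 119 in number at 0 or 2 bases. They numbered 121 at 10 bases and 116 with protein-coding transcripts only. Shared seeds numbered 7, against 14 with bases 2 to 7. The library differences of the 6 called members kept their sign at pseudocounts of 0.1 and 10 RPM. Members in replicate 1 alone and replicate 2 alone numbered 35 and 47, and 39.7 and 38.5 after thinning. The arm test between libraries at 50 reads was not run, since no member hairpin was that deep. No paired analysis was possible because there was 1 group. With 2 libraries an exact sign-flip test cannot go below p = 0.5. Most members lie within a few reads of 0, where only large differences in level or arm use can be seen.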

Other observations

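RefSeq holds 300 mature names in the numbered block, of which 159 had a row in the table and 141 had none. The median member on the 5p arm (92 names) had 0.167 RPM and the median member on the 3p arm (84 names) 0.118 RPM. At 3′ splice sites the medians were 0.157 RPM (82 names) and 0.111 RPM (79 names). A read was found in both libraries for 56 of the 5p members and 40 of the 3p members. The 10 highest members held 35.4% and 32.3% of the members' reads.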
